A study of Mus musculus with 4 samples.

Results

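The 10 genes described here encode enzymes and partner proteins that make or break down eicosanoids, platelet-activating factor (PAF) and serotonin. They were chosen by name as the rows Pla2g7, Pla2g4a, Ptgs1, Ptgs2, Alox5, Alox5ap, Hpgds, Ltc4s, Ptges and Tph1 of a table of 22554 genes, and all 10 have a row. RNA was sequenced from ILC2s, group 2 innate lymphoid cells, sorted from the lungs of BALB/c wild-type mice aged 6 weeks. The cells of every library were kept overnight, by the labels, with the cytokines IL-2, IL-7 and IL-33. Either vehicle (2 libraries, labeled Control 1 and 2) or compound 5D (2 libraries) was added. The paper describes the culture time differently. Compound 5D is an inhibitor of all Orai channels, the pores that let calcium into a cell after its internal stores have been emptied, so the comparison asks how these genes stood when that entry was blocked. No gene was deleted and no transgene was used in either group. The labels number the libraries but do not say whether they came from separate mice or cultures, so the errors given measure only the spread between these libraries, which may be technical.

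Eicosanoids are lipid mediators made on demand from arachidonic acid. Cytosolic phospholipase A2 frees arachidonic acid from membranes, cyclooxygenases turn it into prostaglandin H2 and 5-lipoxygenase turns it into leukotriene A4, after which terminal synthases make prostaglandin D2, prostaglandin E2 or leukotriene C4. PAF is a phospholipid mediator made by remodeling of membrane ether lipids and inactivated by acetylhydrolases, and serotonin is made from tryptophan in a pathway whose rate-limiting step is tryptophan hydroxylase. In the airways prostaglandin D2 and cysteinyl leukotrienes are known to activate ILC2s, and both cytosolic phospholipase A2 and 5-lipoxygenase are enzymes that calcium activates at the protein level.

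Pla2g7, the gene of the secreted PAF acetylhydrolase, showed the largest difference between 5D-treated and vehicle-treated ILC2s of the 9 members that could be fitted. Vehicle-treated cells had 13.3 ± 1.02 normalized CPM of Pla2g7 (SD, n = 2), and 5D-treated cells had 26.2 ± 0.712 (SD, n = 2), which was 1.96-fold higher. Ptges, the inducible prostaglandin E2 synthase, came next among the higher genes with a 1.52-fold difference. The fitted difference was below 0.1 on the log2 scale for Tph1, Alox5 and Alox5ap, and it was 0.17 for Hpgds and 0.20 for Pla2g4a. Ptgs1 and Ptgs2 had fitted values below 0 with wide errors, and Ltc4s had too few counts for a fit. Normalized CPM are CPM of the library total after scaling by the upper quartile. In bulk RNA, fewer cells with a transcript and less of it in each cell cannot be told apart. The members were chosen with this comparison already known, so their differences are given as a description and without p-values.

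**Figure D1:**
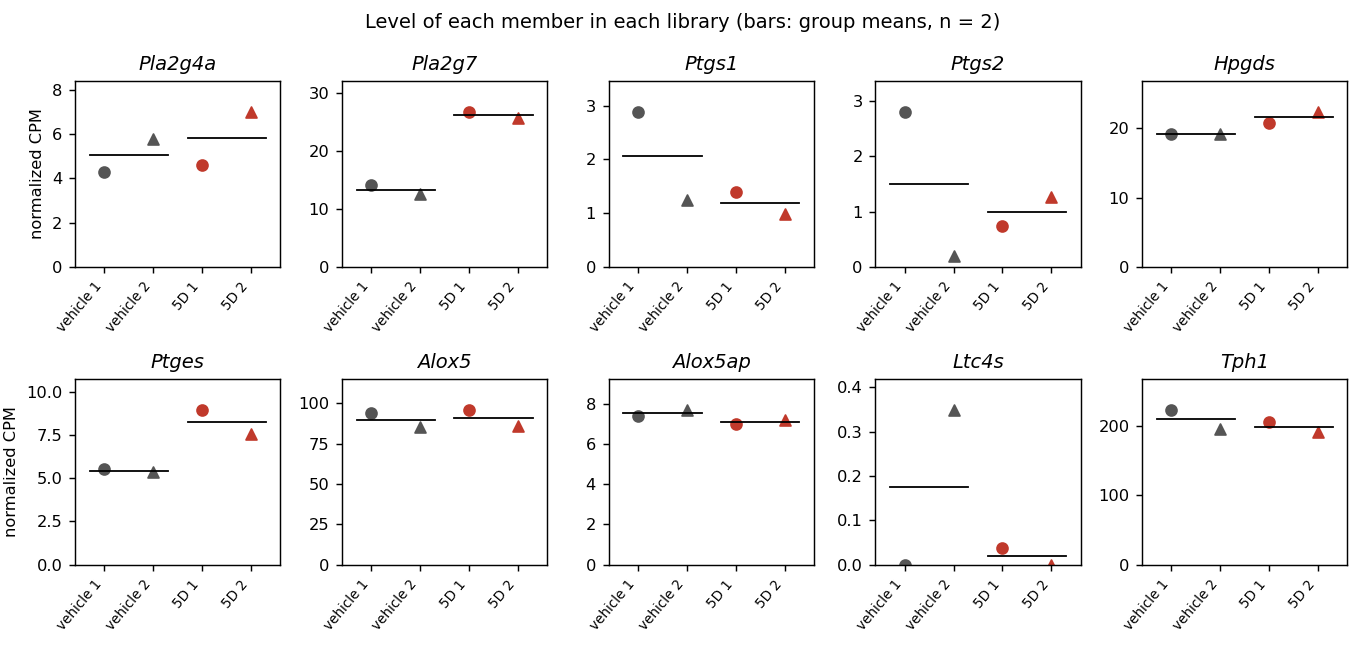
Level of each of the 10 genes in each library, in normalized CPM on a linear axis that starts at 0 (gray, vehicle, and red, 5D, with circles for replicate 1 and triangles for replicate 2). Horizontal bars mark the group means (n = 2). Both 5D libraries lie near 26 for Pla2g7 against 12.6 and 14.0 with vehicle, whereas the libraries of the groups interleave for Tph1, Alox5, Pla2g4a, Ptgs1, Ptgs2 and Ltc4s.

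Of the 10 genes, 9 had enough counts to be fitted, and Ltc4s did not. With edgeR's quasi-likelihood test over 17650 genes, 1 member, Pla2g7, was called higher with 5D at an adjusted p-value under 0.05, where 0.0283% of all genes were, and 0 were called lower, where 0.068% of all genes were (0.0963% in either direction). At an unadjusted p-value under 0.05, 2 members were higher (Pla2g7 and Ptges) against 3.5% of all genes, and 0 were lower against 3.84% (7.34% in either direction). The libraries of the groups did not overlap for 4 of the 9 genes, with 5D above for Pla2g7, Ptges and Hpgds and below for Alox5ap, whereas 37.6% of all genes tested had no overlap (18.7% with 5D above and 18.8% with 5D below). The median log2 fold change of the 9 members was 0.02, and that of all genes tested was -0.0016. Nothing is read from these counts, since the same comparison stood behind the choice of genes. The libraries held 20096513 to 28697196 counts and both 5D libraries were deeper than both vehicle libraries, so depth moved with the treatment.

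**Figure D2:**
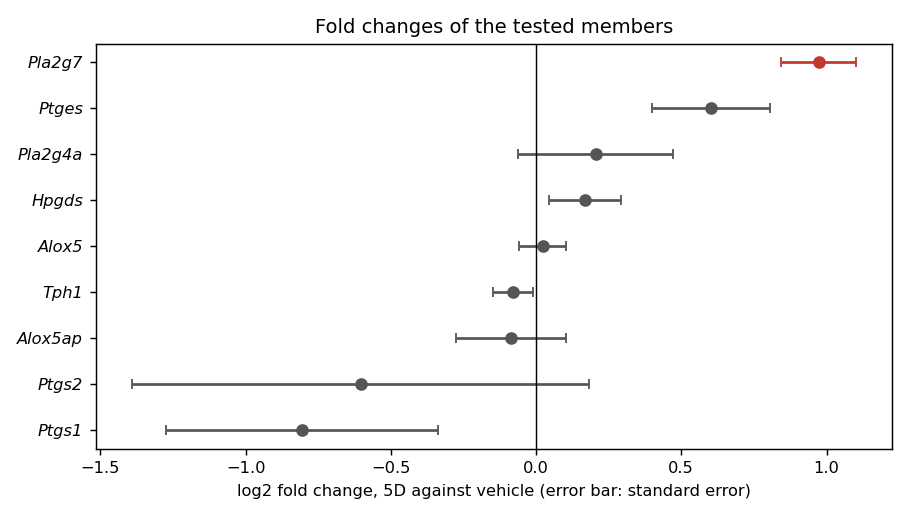
Log2 fold change of the 9 fitted genes, 5D against vehicle, with the standard error of the fit as horizontal bars. Pla2g7 at 0.97 (red, called at an adjusted p-value under 0.05) and Ptges at 0.60 lie farthest to the right, and the longest bar belongs to Ptgs2.

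The sequences before the start sites of 4 members are shown. These members are the gene that was called (Pla2g7) and the next one among the genes higher with 5D (Ptges). The others are the cyclooxygenase gene known to be induced through calcium and NFAT (Ptgs2) and the most abundant member (Tph1). The sequences come from RefSeq on the build GRCm38.p6 and are written 5′ to 3′ on the strand of the gene. Bases that lie in an annotated exon of the same gene are left out. The table of promoters had a window for 9 of the 10 genes. Capitals mark every match, on either strand, to the letters GGAAA (the core of NFAT sites), TGACG (part of a cAMP response element), TGACTCA (AP-1), GCGTG (the core of aryl hydrocarbon receptor sites) and TATAAA, and no match in these windows overlapped another.
Pla2g7, chr17:43568201-43568268, plus strand: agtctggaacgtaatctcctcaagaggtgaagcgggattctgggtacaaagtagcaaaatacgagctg
Ptges, chr2:30903298-30903547, minus strand: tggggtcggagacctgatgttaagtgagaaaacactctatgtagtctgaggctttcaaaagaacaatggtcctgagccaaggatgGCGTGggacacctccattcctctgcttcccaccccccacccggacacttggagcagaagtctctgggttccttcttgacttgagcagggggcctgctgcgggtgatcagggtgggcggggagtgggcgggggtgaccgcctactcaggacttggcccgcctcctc
Ptgs2, chr1:150099781-150100030, plus strand: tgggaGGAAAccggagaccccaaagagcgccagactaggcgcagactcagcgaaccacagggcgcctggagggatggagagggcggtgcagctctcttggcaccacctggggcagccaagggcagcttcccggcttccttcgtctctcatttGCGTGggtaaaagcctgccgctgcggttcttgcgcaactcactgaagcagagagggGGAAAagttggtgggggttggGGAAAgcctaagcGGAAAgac
Tph1, first start, chr7:46672538-46672787, minus strand: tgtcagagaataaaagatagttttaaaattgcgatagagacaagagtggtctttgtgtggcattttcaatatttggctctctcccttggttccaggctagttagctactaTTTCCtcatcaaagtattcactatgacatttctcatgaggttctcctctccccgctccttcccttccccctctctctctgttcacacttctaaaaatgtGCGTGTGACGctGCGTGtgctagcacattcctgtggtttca
Tph1, second start, chr7:46667378-46667627, minus strand: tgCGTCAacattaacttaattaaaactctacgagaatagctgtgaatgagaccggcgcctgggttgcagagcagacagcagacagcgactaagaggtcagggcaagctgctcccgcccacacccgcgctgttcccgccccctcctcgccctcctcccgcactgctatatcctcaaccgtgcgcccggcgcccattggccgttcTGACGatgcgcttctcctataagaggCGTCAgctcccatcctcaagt
The Ptgs2 window held 4 matches to GGAAA, 3 of them within 42 bases of the start site, and 1 to GCGTG. The Ptges window held 1 match to GCGTG. It precedes a start site at 30903297 and lies inside the annotated gene, which runs to 30929863. The 68 bases of Pla2g7 outside its exons held none of the 5 motifs. They lie 183 to 250 bases before the start site used and inside the annotated gene. The bases of Pla2g7 nearer to that start site are not shown, so the absence covers the 68 bases only. The first start of Tph1 had 1 GGAAA, 2 GCGTG and 1 TGACG, and its second start had 3 TGACG. Among the 32851 windows of the table, the 250 bases before the start held GGAAA in 55.6%, GCGTG in 28.2%, TGACG in 17.8%, TATAAA in 12.4% and TGACTCA in 4.46%. Windows of 68 bases held them in 20.6%, 7.39%, 3.45%, 3.66% and 1.07%, in the same order. A match is a run of letters and not a measured binding site.

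The first step, the release of arachidonic acid, is carried out by the enzyme that Pla2g4a encodes, cytosolic phospholipase A2 alpha. Pla2g4a (ENSMUSG00000056220.14, chromosome 1 of mm10 from 149829618 to 149961290, minus strand) had 4.31 and 5.80 normalized CPM with vehicle and 4.61 and 6.99 with 5D. The libraries of the groups interleaved, and the log2 fold change was 0.20 (standard error 0.27). It was -0.13 without 5D replicate 2 and -0.0013 without vehicle replicate 1, so the sign depended on the libraries used.

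Pla2g7 (ENSMUSG00000023913.17, chromosome 17 from 43568098 to 43612201, plus strand) encodes the PAF acetylhydrolase that circulates in plasma bound to lipoproteins and that also cleaves oxidized phospholipids. It had 326 and 252 counts with vehicle and 724 and 734 with 5D, or 14.0 and 12.6 against 26.7 and 25.7 normalized CPM. The vehicle libraries differed 1.11-fold and the 5D libraries 1.04-fold. Pla2g7 was chosen with this comparison known, so these spreads and the fits below, all drawn from the same 4 libraries, only describe it. The log2 fold change was 0.97 (standard error 0.13), and over the fits that left out 1 library it ran from 0.90 to 1.05. The gene was called in 9 of the 12 alternative fits. It was not called without 5D replicate 1, where the log2 fold change was 0.94, nor in libraries thinned to the smallest total, where it was 0.97, and DESeq2 gave no adjusted p-value for it. Of the exon length of Pla2g7, 11.0% is shared with 1700071M16Rik on the opposite strand, and the kit does not keep strand. That gene had 3 and 1 counts with vehicle and 4 and 5 with 5D.

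Macrophages are a known source of Pla2g7. Of 9 markers of macrophages and monocytes, 6 had a row, and their summed level was 3.32 and 6.95 normalized CPM with vehicle and 5.08 and 4.27 with 5D. Cd68, a lysosomal protein of macrophages, gave much of this sum, with 63 and 73 counts with vehicle and 109 and 114 with 5D, or 2.71 and 3.65 against 4.02 and 3.99 normalized CPM. Both of its 5D libraries were thus above both vehicle libraries, as for 18.7% of all genes tested. The log2 fold change of Cd68 was 0.34 (standard error 0.27). The other tested markers had fitted values below 0, and their libraries overlapped between the groups. Lyz2 was at -1.92 (standard error 0.93), Itgam at -1.04 (standard error 1.54) and Cd14 at -0.82 (standard error 0.92). Adgre1, which encodes F4/80, had 0 and 5 counts with vehicle and 0 and 1 with 5D. Csf1r, the receptor of a macrophage growth factor, had 1 and 2 counts with vehicle and 0 in both 5D libraries. Of the 4 markers tested, 0 were higher and 0 lower at an unadjusted p-value under 0.05, against 3.5% and 3.84% of all genes tested. The part of such cells in the difference of Pla2g7 was not tested.

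Both cyclooxygenase genes stood near the bottom of the range. Ptgs1 (ENSMUSG00000047250.13, chromosome 2 from 36230426 to 36252272, plus strand), the gene of the constitutive cyclooxygenase, had 2.88 and 1.25 normalized CPM with vehicle and 1.40 and 0.979 with 5D. Vehicle replicate 1 stood above the other 3 libraries and vehicle replicate 2 lay between the 5D libraries. The log2 fold change of -0.81 (standard error 0.47) became -0.07 without vehicle replicate 1.

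Ptgs2 (ENSMUSG00000032487.8, chromosome 1 from 150100031 to 150108227, plus strand), the gene of the inducible cyclooxygenase, varied most among the fitted members. It had 65 and 4 counts with vehicle, a 14.0-fold difference between libraries of the same group once normalized, and 20 and 36 counts with 5D. Both 5D libraries lay between the vehicle libraries. The fitted log2 fold change of -0.60 (standard error 0.79) turned to 2.29 without vehicle replicate 1 and to 0.18 with limma-voom, and no direction can be given for this gene. Its start site lies 138741 bases from that of Pla2g4a, which is read the other way, and no protein-coding gene is annotated between them. Ptgs2os, an RNA gene of this interval, had 0 counts in all 4 libraries. The neighbors were unlike in their spread, since Pla2g4a differed only 1.35-fold between the vehicle libraries.

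The terminal prostaglandin synthases stood higher than the cyclooxygenases. Hpgds (ENSMUSG00000029919.5, chromosome 6 from 65117293 to 65144908, minus strand), which makes prostaglandin D2 in hematopoietic cells, had 19.2 normalized CPM in each vehicle library and 20.9 and 22.4 with 5D. Both 5D libraries were above both vehicle libraries, which came to a log2 difference of 0.17 (standard error 0.12) that was not called. Ptges (ENSMUSG00000050737.13, chromosome 2 from 30889471 to 30929863, minus strand), which makes prostaglandin E2 and is coupled to the inducible cyclooxygenase, had 5.51 and 5.35 normalized CPM with vehicle and 8.95 and 7.55 with 5D.

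The vehicle libraries of Ptges lay 1.03-fold apart and the 5D libraries 1.19-fold, with both 5D libraries above. Its log2 fold change was 0.60 (standard error 0.20) and ran from 0.47 to 0.72 when 1 library was left out. Per kb of exon, Ptges was 0.468 and 0.454 times the level of Hpgds with vehicle and 0.702 and 0.552 times with 5D. The ratio of these synthase transcripts, one for prostaglandin E2 and one for prostaglandin D2, was thus higher in both 5D libraries.

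The leukotriene branch was represented by an abundant first enzyme and almost no transcript of the classical last one. Alox5 (ENSMUSG00000025701.12, chromosome 6 from 116410077 to 116461178, minus strand), which encodes 5-lipoxygenase, had 93.9 and 85.3 normalized CPM with vehicle and 96.1 and 86.1 with 5D. The groups interleaved, and the log2 fold change was 0.02 (standard error 0.08). Alox5ap (ENSMUSG00000060063.9, chromosome 5 from 149264767 to 149288153, plus strand), the membrane protein that presents arachidonic acid to 5-lipoxygenase, had 172 and 154 counts with vehicle and 190 and 206 with 5D, or 7.55 ± 0.205 normalized CPM (SD, n = 2) and then 7.10 ± 0.144 (SD, n = 2).

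Both 5D libraries of Alox5ap were below both vehicle libraries, but the log2 difference of -0.09 was smaller than its standard error of 0.19. Per kb of exon, Alox5 stood 3.84 to 4.75 times above Alox5ap over the 4 libraries. Of the exon length of Alox5ap, 13.3% is shared with Gm19719 on the opposite strand, so reads of that part cannot be assigned with certainty. Ltc4s (ENSMUSG00000020377.15, chromosome 11 from 50236461 to 50238616, minus strand), the leukotriene C4 synthase, had 0 and 7 counts with vehicle and 1 and 0 with 5D. A count of 0 allows up to 3 counts, which is 0.129 normalized CPM in vehicle replicate 1 and 0.105 in 5D replicate 2. Of its exon length, 26.4% is shared with Gm26542 on the other strand, a gene with 2 to 4 counts per library, so even these few reads cannot be assigned to Ltc4s with certainty, and a difference between the groups was not detectable at this depth.

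Tph1 (ENSMUSG00000040046.14, chromosome 7 from 46644641 to 46672537, minus strand), the tryptophan hydroxylase of tissues outside the brain, was the most abundant member. It had 224 and 196 normalized CPM with vehicle and 207 and 192 with 5D. The groups interleaved, and the log2 difference came to -0.08 (standard error 0.07). The sign turned to 0.02 without vehicle replicate 1, which held the highest level. The ratio of Tph1 to Alox5 per kb of exon stayed between 1.43 and 1.59 in the 4 libraries.

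Levels of different genes were compared per kb of exon, since longer transcripts give more reads. In this order Tph1 (mean 33.2 normalized CPM per kb over the 4 libraries) was followed by Alox5 (22.0), Pla2g7 (6.80), Alox5ap (5.16), Hpgds (3.18), Ptges (1.74), Pla2g4a (0.849), Ptgs1 (0.419), Ptgs2 (0.273) and Ltc4s (0.0953). Some neighbors had ranges that overlapped over the 4 libraries of both groups together, and their order was not the same in every library. They were Pla2g7 and Alox5ap, Pla2g4a and Ptgs1, Ptgs1 and Ptgs2, and Ptgs2 and Ltc4s. Within each group Pla2g7 and Alox5ap did not overlap. Pla2g7 was below Alox5ap with vehicle (4.83 and 4.33 against 5.21 and 5.42 per kb). It was above Alox5ap with 5D (9.18 and 8.84 against 4.93 and 5.07). Among the tested genes with a length, Tph1 lay at percentile 89.1 of this level and Alox5 at 84.4, whereas Ptgs1 lay at 27.5 and Ptgs2 at 21.7. With the length of the longest protein-coding transcript in place of all exons, an alternative chosen after seeing the data, 6 of the 10 genes kept their place, and Hpgds with Alox5ap and Ptges with Pla2g4a changed places.

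**Figure D3:**
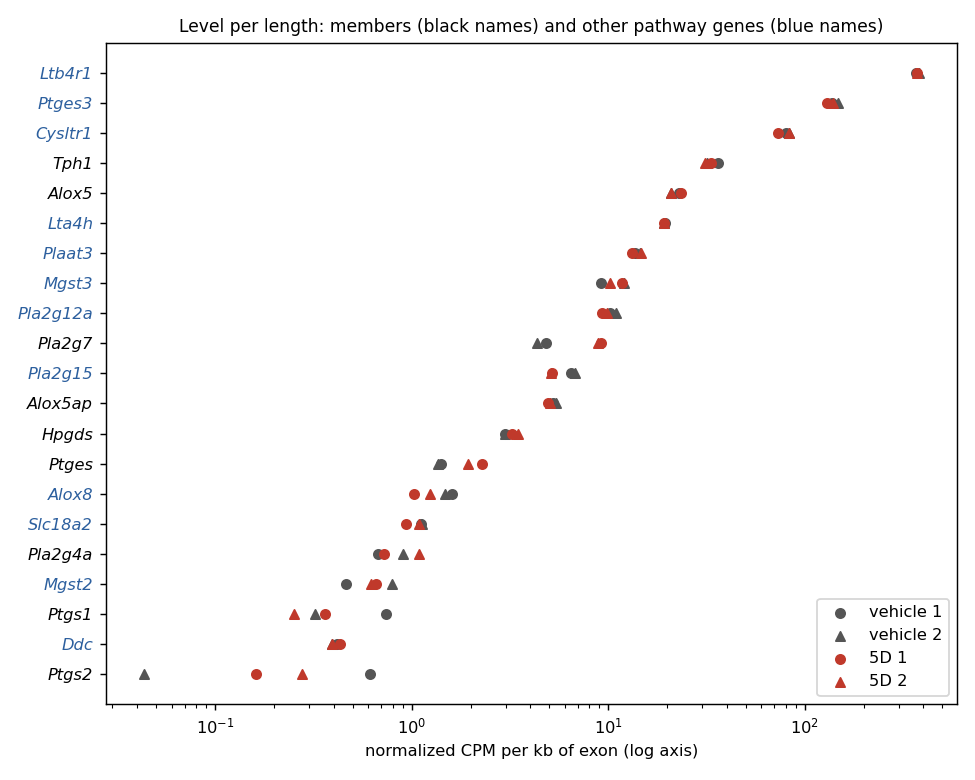
Level per length of the members (black names, without Ltc4s, which has libraries at 0) and of other genes of the same pathways (blue names), in normalized CPM per kb of exon on a log axis, with 1 point per library (gray, vehicle, and red, 5D). Tph1 and Alox5 lie above 20, the cyclooxygenase genes lie below 1, and the points of Ptgs2 are the most spread out.

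The other genes of these pathways were counted from 9 lists made by function, with 102 genes in all, of which 68 had a row and 59 were tested. None of the 59 was called at an adjusted p-value under 0.05 by edgeR, and limma-voom called 0 as well, as did DESeq2 among the genes to which it gave an adjusted p-value. At an unadjusted p-value under 0.05, 0 were higher, where 3.5% of all genes tested were, and 2 were lower, where 3.84% were. The median log2 fold change of the 59 was -0.0099. Pla2g15, a lysosomal phospholipase A2, had 19.5 and 20.4 normalized CPM with vehicle and 15.5 and 15.4 with 5D (log2 fold change -0.37, standard error 0.13, adjusted p = 0.566 from edgeR). Ptger2, the prostaglandin E2 receptor EP2, had 22.8 and 22.2 with vehicle and 17.3 and 19.7 with 5D (log2 fold change -0.28, standard error 0.13, adjusted p = 0.673 from edgeR). Both passed only without adjustment, and Ptger2 shares a stretch of 249 nt with Gm17173.

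**Figure D4:**
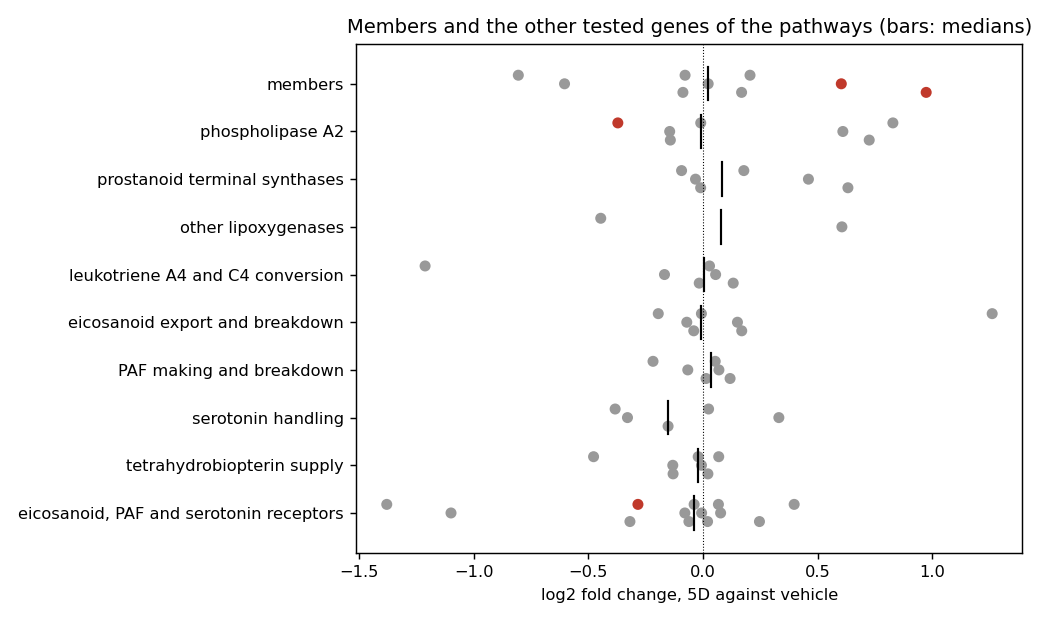
Log2 fold change, 5D against vehicle, of the fitted members (top row) and of the 59 other tested genes by pathway list, with 1 point per gene and the median of each row as a vertical bar. Red points had an unadjusted p-value under 0.05, namely Pla2g7 and Ptges among the members and Pla2g15 and Ptger2 among the others, and the medians lie between -0.15 and 0.08.

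Along the prostaglandin branch, 7 phospholipase A2 genes, 6 terminal synthase genes and 7 export and breakdown genes were tested, and 0 of these were called. The most abundant per length were Plaat3, an adipose phospholipase listed under its older symbol Pla2g16, with 14.0 normalized CPM per kb, Ptges3, a cytosolic prostaglandin E2 synthase that is also a co-chaperone of HSP90, with 138, and Ptgr2, a prostaglandin reductase, with 8.46. Their log2 fold changes were -0.0099, -0.09 and 0.15. Ptges3 thus stood above Ptges in transcript level in every library, although it shares a stretch of 480 nt with Ptges3-ps. Ptgr2 shares 1898 nt with Gm47484.

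Along the leukotriene branch, Lta4h, which makes leukotriene B4, was the most abundant of the 6 conversion genes tested. It had 117 to 119 normalized CPM in all 4 libraries and stood at 19.3 per kb. Mgst2 and Mgst3, microsomal enzymes that can also add glutathione to leukotriene A4 and that were named after their values were seen, had 1.72 to 2.95 and 10.1 to 13.2 normalized CPM over the 4 libraries, against at most 0.350 for Ltc4s. Of the other lipoxygenases 2 were tested, and Alox8 was the most abundant with 5.73 and 5.25 normalized CPM with vehicle and 3.65 and 4.41 with 5D (log2 fold change -0.45, standard error 0.24, adjusted p = 0.746 from edgeR).

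The receptors for these mediators included the most abundant transcript of the lists per kb of exon. Ltb4r1, the high-affinity leukotriene B4 receptor, stood at 513 and 530 normalized CPM with vehicle and 517 and 521 with 5D, or 373 per kb. Cysltr1, a cysteinyl leukotriene receptor that was named after its values were seen, ran from 377 to 426 normalized CPM over the 4 libraries. Per kb it stood at 79.7, below Ptges3. Of 13 receptor genes tested 0 were called. The prostaglandin D2 receptor genes Ptgdr and Ptgdr2 were not analysed here.

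On the PAF side, 6 genes of its making and breakdown were tested beside Pla2g7, and 0 were called. Their log2 fold changes ran from -0.22 to 0.12, against 0.97 for Pla2g7. The most abundant was Pafah1b2, a catalytic subunit of the intracellular PAF acetylhydrolase, at 162 to 167 normalized CPM over the 4 libraries. The difference between Pla2g7 and these genes was not tested.

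On the serotonin side, 5 genes of serotonin handling and 7 of the supply of its cofactor tetrahydrobiopterin were tested beside Tph1, and 0 were called. Ddc, the decarboxylase of the second step, named after its values were seen, had 1.75 to 1.92 normalized CPM over the 4 libraries, far below Tph1. Slc18a2, which loads monoamines into vesicles and was named in the same way, had 4.86 to 5.90. Slc6a4, the serotonin transporter, had 0 counts in all 4 libraries. The most abundant per length were Maob, which degrades monoamines, with 5.84 per kb, and Pcbd2, which helps to recycle the cofactor, with 50.2. Their log2 fold changes were -0.33 (standard error 0.17, adjusted p = 0.741 from edgeR) and -0.0068.

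Mast cells and basophils also use Alox5, Ltc4s, Hpgds and Tph1, and platelets use Ptgs1. All 15 markers of the labeled cell type, ILC2s, had a row, and their summed level was 13075 and 13007 normalized CPM with vehicle and 12160 and 12727 with 5D. Of these markers, 1 was higher with 5D (Il1rl1) and 4 were lower (Il2ra, Klrg1, Thy1 and Il5) at an unadjusted p-value under 0.05. Over all genes tested, 3.5% were higher and 3.84% lower at this threshold. At an adjusted p-value 0 of these markers were called. The 11 markers of mast cells and basophils summed to 101 and 103 normalized CPM with vehicle and 101 and 109 with 5D, and Kit and Tpsab1 gave most of this. Mcpt4 and Ms4a2 were at 0 in all libraries, and 1 marker, Tpsb2, was higher at an unadjusted p-value under 0.05. Tpsb2 had 10 and 25 counts with vehicle and 31 and 161 with 5D. In normalized CPM these were 0.431 and 1.25 against 1.14 and 5.63, so the groups overlapped and only 5D replicate 2 stood above both vehicle libraries. The part of such cells in the levels of Hpgds, Alox5 and Tph1 was not tested. Of the platelet markers Pf4 was at 0, and their sum was at most 0.811 normalized CPM. The sort had left out cells that stain for the high-affinity IgE receptor and for CD11b, among other lineage markers. Fcer1a, which encodes a chain of the IgE receptor, had 20 and 11 counts with vehicle and 25 and 61 with 5D. Among the mast cell and basophil markers, both 5D libraries were above both vehicle libraries for Fcer1a and Hdc and below for Kit. Over all genes tested, 18.7% had 5D above and 18.8% had 5D below in this way.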

How the data were processed

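Lung ILC2s were profiled in 4 libraries, 2 with vehicle and 2 with compound 5D. The labels give 10 ng of input RNA, whereas the paper's methods state 10 pg. The RNA was turned into cDNA with a low-input kit that does not keep strand. The authors aligned reads with STAR 2.6.1 to mm10 and quantified them on GENCODE M21 in Partek, and deposited estimated counts per gene before normalization. These values were rounded, which left 500 genes at 0 in every library.

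Counts were fitted in R 4.3.3 with edgeR 4.0.16 (glmQLFit and glmQLFTest, two-sided, upper quartile factors, Benjamini-Hochberg adjustment). The 17650 genes fitted had normalized counts averaging 1 or more and summing to 10 or more. The authors' Gene Set Analysis was not run here. Standard errors were taken from the log2 fold change and the root of its F statistic. Alternatives were TMM, DESeq2's size factors, DESeq2 1.42.0, limma-voom (limma 3.58.1), no filter, filterByExpr, a replicate block, thinned libraries and leaving out each library. The count limit for a gene at 0 (3 counts) covers counting error only. Coordinates and exon lengths come from GENCODE M21 on mm10, and shared stretches from BLAST 2.17.0. The scripts were tested on simulated data.

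The members and all gene lists were chosen with earlier results of these data known. Named were the members, each pathway gene at an unadjusted p-value under 0.05 and the most abundant gene per length of each list. Single marker genes of cell types were named after their values were seen. Listed genes without a row were not analysed here.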

Additional observations from a re-analysis of the deposited data

How the results depend on the processing

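The sign of the difference stayed the same for Pla2g7, Ptges, Hpgds, Alox5ap and Ptgs1 in all 12 alternative fits, with log2 fold changes over the fits that left out 1 library of 0.90 to 1.05, 0.47 to 0.72, 0.11 to 0.21, -0.12 to -0.06 and -1.28 to -0.07. It changed with the library left out for Pla2g4a (-0.13 to 0.47), Ptgs2 (-1.48 to 2.29), Alox5 (-0.06 to 0.10) and Tph1 (-0.17 to 0.02). Fits without 1 library assume that the lone library of its group varies like the other group. Genes called higher over the whole table numbered 5, and 11 with no filter, 9 with limma-voom, 16 with DESeq2's Wald test, 2 in thinned libraries (a single draw), 618 at an unadjusted p-value and 3 to 73 when 1 library was left out (73 without vehicle replicate 1, 32 without vehicle replicate 2 and 3 without 5D replicate 2). Genes called lower numbered 12, and 35 with no filter, 19 with filterByExpr, 23 with limma-voom, 42 with DESeq2's Wald test, 4 in thinned libraries, 678 at an unadjusted p-value and 12 to 107 when 1 library was left out (107 without vehicle replicate 1 and 47 without vehicle replicate 2). Members called higher numbered 1, and 0 with DESeq2's Wald test, which gave Pla2g7 no adjusted p-value, 0 in thinned libraries, 2 at an unadjusted p-value and 0 to 1 when 1 library was left out (0 without 5D replicate 1). Pathway genes called lower numbered 0, and 2 at an unadjusted p-value. With the replicate number as a block, 9 genes were called higher and 32 lower, 1 member higher and 0 lower, and Ptgs2 was at -0.09. The labels do not say that equal numbers mark a shared mouse or day, and the deviations of equally numbered libraries from their group means had a correlation of 0.0147 over 17650 genes, so the numbers were not taken as pairs. Among the named pathway genes near 0, the sign turned for Plaat3 (-0.092 to 0.061 when 1 library was left out), Pafah1b2 (-0.010 to 0.031), Pcbd2 (-0.039 to 0.021, and 0.0023 with TMM) and Ltb4r1 (-0.032 to 0.014, and 0.0033 with TMM). With the longest transcript as length, 6 members kept their place in the order of levels. The cause of these differences between fits was not tested. The lowest counts were those of Ltc4s, Ptgs2 and Ptgs1, with at most 7, 65 and 67 in a library.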
